A study of Mus musculus with 15 samples.

Results

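Fatty acid synthesis and desaturation were followed through 10 genes in BV2 cells, a mouse microglial line: the transcription factor gene Srebf1 and the enzyme genes Acly, Acss2, Acaca, Fasn, Elovl6, Scd1, Scd2, Fads1 and Fads2. These genes were chosen by name for their place in the pathway, out of 54390 genes listed for every library, and the rule uses no measured value, although earlier results of these data were known when it was set. RNA was sequenced from 15 libraries in a design that asked how WT and Trem2-/- cells respond to a cholesterol load. WT non-foamy cells (n = 4) and Trem2-/- non-foamy cells (n = 3) had media alone, whereas WT foamy cells (n = 4) and Trem2-/- foamy cells (n = 4) were given 20 µg/ml soluble cholesterol overnight. This cholesterol was prepared with methyl-beta-cyclodextrin, and the methods describe no control with that carrier alone. Cholesterol and its carrier therefore cannot be told apart in the responses below. Per the methods the Trem2-/- line was made with a guide RNA in BV2 cells that carry Cas9 and grown from a single cell by limiting dilution, so that genotype and clone cannot be told apart. The labels do not say that libraries of a group came from separate cultures, and p-values then measure only the spread between these libraries, which may be technical.

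Cells build fatty acids from cytosolic acetyl-CoA, which ATP citrate lyase (Acly) makes from citrate and acetyl-CoA synthetase (Acss2) makes from acetate. Acetyl-CoA carboxylase (Acaca) turns it into malonyl-CoA, fatty acid synthase (Fasn) joins these units to palmitate, and Elovl6 adds carbons to palmitate. The stearoyl-CoA desaturases (Scd1, Scd2) place the first double bond, and Fads1 and Fads2 desaturate the longer polyunsaturated chains. Srebf1 encodes SREBP-1, which drives transcription of these enzymes and is itself a target of the oxysterol receptor LXR, whereas SREBP-2 mainly drives cholesterol synthesis. In macrophages and microglia these routes supply the lipids of membranes and of lipid droplets.

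Each library held 23538963 to 41683825 counted reads, and in all 21 pairs of replicates the spread exceeded counting noise (chi-square per gene 5.95 to 45.2). Sampling alone gives about 1 for reads counted independently, and more if both reads of a pair were counted. Levels are normalised read counts in CPM, the reads of a gene relative to the size of its library after TMM scaling. The target gene Trem2 was counted in every library, at 327 to 415 CPM in WT non-foamy, 337 to 400 CPM in WT foamy, 214 to 232 CPM in Trem2-/- non-foamy and 218 to 227 CPM in Trem2-/- foamy cells. Its log2 difference between genotypes was −0.67 without cholesterol (adjusted p = 2.85e-07 by edgeR) and −0.73 with it (adjusted p = 7.09e-08), which checks the genotype labels by the level of a transcript that a small edit need not remove. Of 11 microglia and macrophage markers, Csf1r, Adgre1, Cd68, Lyz2, Spi1, Itgam and Aif1 were above 10 CPM in every library, while Cx3cr1 and P2ry12 stayed under 2.5 CPM, Tmem119 under 1 CPM and Sall1 at 0 in all 15 libraries. The summed level of these 11 markers was 4879 to 6232 CPM in WT and 8378 to 9293 CPM in Trem2-/- libraries. Most of this sum was Lyz2 (means 3252 in WT and 6318 CPM in Trem2-/- non-foamy cells) and Cd68 (1238 and 1614 CPM). Csf1r, Adgre1, Aif1 and Itgam also had higher means in Trem2-/- non-foamy cells. Cx3cr1 (1.54 and 0.300 CPM) and P2ry12 (1.74 and 0.598 CPM) had lower means there, and Spi1 was at 93.4 and 98.3 CPM. The 21 markers of other cell types (adipocytes, hepatocytes, fibroblasts, endothelium, epithelium, lymphocytes and brain cells) summed to between 0.217 and 1.01 CPM, and none reached a group mean of 1 CPM.

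Within groups the libraries were not alike for these genes. The WT non-foamy replicate 3, WT foamy replicate 3 and Trem2-/- foamy replicate 4 libraries had the largest mitochondrial share of reads, at 7.97%, 7.76% and 8.05%, against 5.83% to 7.51% in the other 12. They were also the lowest library of their group for 8, 9 and 7 of the 9 tested genes of the pathway. Their median deviations from the mean of the other libraries of the group were −0.42, −0.28 and −0.31 on the log2 scale. Over all genes the same libraries were the lowest of their group for 36.3%, 27.5% and 32.4%. Counts of members are therefore also given without these 3 libraries and with the mitochondrial share as a term in the fit, both chosen after the data were seen.

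The genes lie on 4 chromosomes (GRCm38, GENCODE M21 annotation). Srebf1 (ENSMUSG00000020538) spans chr11:60199089-60222581 on the minus strand, Fasn (ENSMUSG00000025153) chr11:120805846-120824547 (minus), Acaca (ENSMUSG00000020532) chr11:84129672-84401651 (plus) and Acly (ENSMUSG00000020917) chr11:100476353-100528000 (minus). Acss2 (ENSMUSG00000027605) spans chr2:155517948-155585724 (plus), and Elovl6 (ENSMUSG00000041220) chr3:129532355-129638495 (plus). The desaturase genes share chromosome 19, with Scd1 (ENSMUSG00000037071) at chr19:44394455-44407879 (minus), Scd2 (ENSMUSG00000025203) at chr19:44293674-44306864 (plus), Fads1 (ENSMUSG00000010663) at chr19:10182888-10196877 (plus) and Fads2 (ENSMUSG00000024665) at chr19:10062765-10101746 (minus). Values are reads counted over exons of the whole gene, so that the transcript forms of SREBP-1 were not separated. Whether strand was used, and how reads matching several genes were treated, is not given in the sources used here. Exons of other genes overlap 9.12% of the exonic bases of Acss2, on the opposite strand, and 3.11% of those of Srebf1. Of the 50-base stretches of Acaca transcripts, 30.4% also occur in other transcripts, nearly all in the pseudogene Gm5182 (70 to 239 reads per library), and the share is 4.56% for Scd1 and 3.97% for Scd2, mostly with each other and with Scd3 and Scd4. The Acaca, Scd1 and Acss2 counts carry that uncertainty.

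Sequences upstream of the start are shown for Fasn, Acly and Elovl6, the members with the largest decreases in Trem2-/- non-foamy cells. They are the bases of the 250-base RefSeq window (GRCm38.p6) that lie outside the annotated gene, read 5′ to 3′ on the strand of the gene, with CCAAT (the NF-Y element) and GGGCGG (the GC box) in capitals on either strand, so that ATTGG and CCGCCC are the same motifs on the opposite strand. The Fasn run is chr11:120824548-120824797, the Acly run chr11:100528001-100528250 and the Elovl6 run chr3:129532136-129532354.
Fasn: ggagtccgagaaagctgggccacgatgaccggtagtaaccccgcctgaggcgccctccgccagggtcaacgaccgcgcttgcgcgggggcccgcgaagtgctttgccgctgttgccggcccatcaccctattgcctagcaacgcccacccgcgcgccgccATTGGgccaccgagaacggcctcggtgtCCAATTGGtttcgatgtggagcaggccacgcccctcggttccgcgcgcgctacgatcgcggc
Acly: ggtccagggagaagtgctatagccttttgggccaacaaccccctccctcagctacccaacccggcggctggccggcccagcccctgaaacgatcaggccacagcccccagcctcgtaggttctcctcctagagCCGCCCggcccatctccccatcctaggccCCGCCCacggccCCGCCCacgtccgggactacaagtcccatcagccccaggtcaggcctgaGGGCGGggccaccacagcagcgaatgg
Elovl6: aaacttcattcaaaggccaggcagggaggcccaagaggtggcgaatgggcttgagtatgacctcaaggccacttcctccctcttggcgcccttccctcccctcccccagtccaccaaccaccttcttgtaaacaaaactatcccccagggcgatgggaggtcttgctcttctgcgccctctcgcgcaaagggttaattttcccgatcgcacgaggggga
Fasn held 3 CCAAT matches, whose first bases lay 90, 62 and 59 bases before the start, the last pair overlapping within CCAATTGG. Acly held 4 GGGCGG matches, 117, 88, 76 and 27 bases before the start. No match to either motif was found in the 250-base window of Elovl6, nor in that of Acaca, which at chr11:84195188-84195437 lies inside the annotated gene and not upstream of its first start. In the window of Acss2, which changed the other way, there were 1 CCAAT match and 4 GGGCGG matches. Over all 32851 promoter windows of this length, 33.8% held CCAAT and 32.7% held GGGCGG. The sterol element form TCACNCCAC (1.05% of windows) and the E-box CACGTG (6.02%) were searched on both strands in the 9 windows of the 7 members with an entry (Srebf1, Acly, Acss2, Acaca, Fasn, Elovl6 and Fads2), and neither was found in these letters.

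Levels per length are compared first. Scd2 was the most abundant transcript of the pathway, at 173 ± 23.5 CPM per kb of exon (SD over all 15 libraries), followed by Acly at 25.8 ± 6.36, Fads1 at 18.6 ± 1.57, Srebf1 at 7.17 ± 1.505, Fasn at 6.002 ± 1.68, Elovl6 at 4.59 ± 1.67, Acaca at 1.65 ± 0.397, Acss2 at 0.913 ± 0.226 and Scd1 at 0.152 ± 0.0806 CPM per kb. In WT non-foamy cells the ranges of Fasn, Srebf1 and Elovl6 overlapped (5.95 to 8.91, 6.49 to 8.33 and 6.13 to 7.17 CPM per kb), so that these neighbours do not differ beyond their spread. The same 3 genes were separated in Trem2-/- non-foamy cells, where Srebf1 lay between 5.98 and 7.47, Fasn between 4.06 and 4.78 and Elovl6 between 2.74 and 3.04 CPM per kb. Acaca and Acss2 did not overlap in WT non-foamy cells (1.36 to 2.39 against 0.624 to 0.922 CPM per kb) and did in Trem2-/- non-foamy cells (1.197 to 1.46 against 1.06 to 1.33 CPM per kb). With the longest annotated transcript as the length, Srebf1 moved to 9.40, Acaca to 2.97, Acss2 to 2.57 and Fads1 to 25.9 CPM per kb over all libraries. The order of these overall means stayed as it was, but within Trem2-/- non-foamy cells Acss2 (2.98 to 3.76 CPM per kb) then lay above Acaca (2.15 to 2.62), and Fads1 (24.0 to 26.7) and Acly (23.0 to 25.8) overlapped. The order of these neighbours thus depends on the length used.

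**Figure D1:**
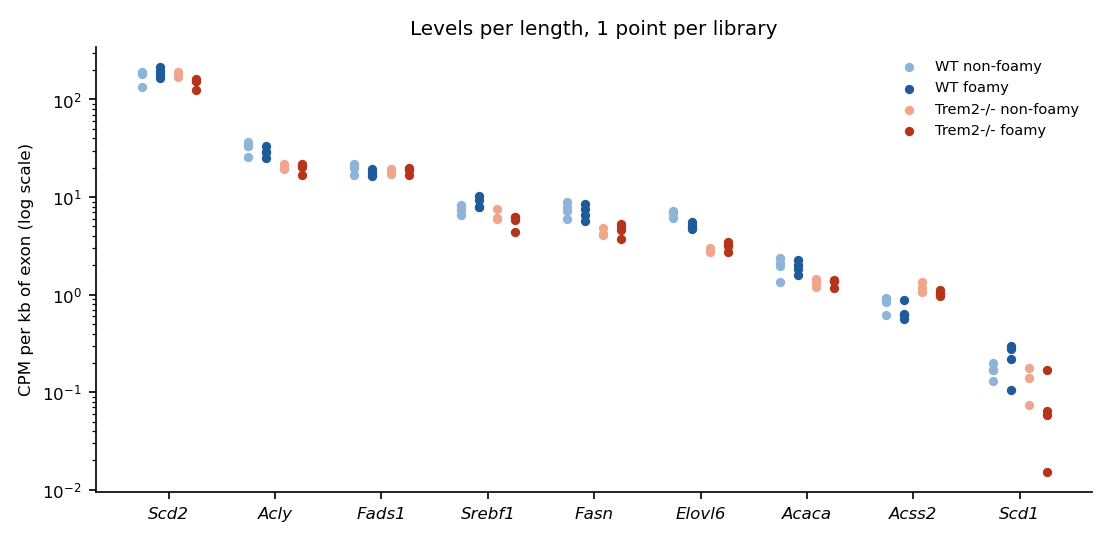
CPM per kb of exon (log axis) of the 9 counted genes, ordered by their mean, with 1 point per library in the 4 groups. Scd2 sits highest at 125 to 214 CPM per kb and Scd1 lowest at 0.0152 to 0.301 CPM per kb, and the Trem2-/- points of Acly, Fasn and Elovl6 lie below most or all WT points while those of Acss2 lie above them.

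Fads2, the delta-6 desaturase gene, was listed at 0 in all 15 libraries, which allows a level of at most 0.0720 to 0.127 CPM per library (3 reads, counting error only), and it was not tested. The reason for the 0 is not known, and the limit holds only if reads of Fads2 could be counted. Of the other 9 members, all passed the filter on low counts. Scd1 passed with few reads: 17 to 61 in the WT libraries, 10 to 26 in Trem2-/- non-foamy and 2 to 30 in Trem2-/- foamy libraries. Scd1 made up 0.0892% of the Scd1 and Scd2 reads in WT non-foamy, 0.106% in WT foamy, 0.0636% in Trem2-/- non-foamy and 0.0445% in Trem2-/- foamy cells (means of n = 4, 4, 3 and 4). Low counts were mostly even (81.1% of counts from 1 to 19), so that the Fads2 limit could be too low, for instance if both reads of a pair were counted.

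More members were called between genotypes than in the responses to cholesterol, and the same held for all tested genes. In Trem2-/- non-foamy cells Acly, Acaca, Fasn and Elovl6 were lower than in WT non-foamy cells, Acss2 was higher, and Srebf1, Scd1, Scd2 and Fads1 did not pass the test. That is 5 of 9 tested members called (4 lower, 1 higher), where 43.6% of all 14237 tested genes were called, 22.6% lower and 21% higher. The median log2 difference was −0.35 over the members and 0.02 over all tested genes. In Trem2-/- foamy against WT foamy cells, 8 of 9 were called: Srebf1, Acly, Acaca, Fasn, Elovl6, Scd1 and Scd2 lower and Acss2 higher. Here 30.2% of all genes were called, 15.9% lower and 14.3% higher, and the medians were −0.55 over the members and 0.00 over all genes. The ranges of WT and Trem2-/- libraries were separate for 4 members without cholesterol and 7 with it, against 46.1% and 28.8% of all genes. Without cholesterol both counts of members were near the shares over all genes. Without the 3 libraries of largest mitochondrial share, 7 members were called without cholesterol, where Srebf1 (−0.25) and Fads1 (−0.18) joined, and 8 with it. With the mitochondrial share as a term the counts were 5 and 9. The share of all genes called in these added fits is not set beside these counts.

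The response to cholesterol involved few of these genes, and few of all tested genes. In WT cells Elovl6 fell, 1 of 9 members against 2.8% of all genes called and 1.14% called lower, and the ranges of the groups were separate for 1 member against 9.71% of all genes. In Trem2-/- cells no member was called by edgeR (0.14% of all genes), with 1 member at an unadjusted p under 0.05 and none called by DESeq2; for that 1 member, Scd2, the libraries did not overlap, against 9.26% of all genes. Without the filter on low counts edgeR called Scd2 in the Trem2-/- response (−0.29, adjusted p = 0.0312). The responses themselves differed for Elovl6, 1 of 9 members against 3.64% of all genes called and 1.99% called higher, and for 3 members without the filter. With the mitochondrial share as a term, 4 members were called in the WT response (Elovl6, Acly and Fads1 lower, Srebf1 higher), 1 in the Trem2-/- response (Scd2 lower) and 4 in the difference (Elovl6 and Fads1 higher, Srebf1 and Scd2 lower). Without the 3 libraries of largest mitochondrial share these counts were 1, 0 and 2. The counts of these alternative fits stand without the share of all genes called in the same fit. Median responses over the members were −0.09 in WT and −0.02 in Trem2-/- cells, and over all genes 0.01 and 0.00. The comparisons share groups and are not independent of each other. In bulk RNA, fewer cells that use a gene and less of its RNA per cell cannot be told apart.

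**Figure D2:**
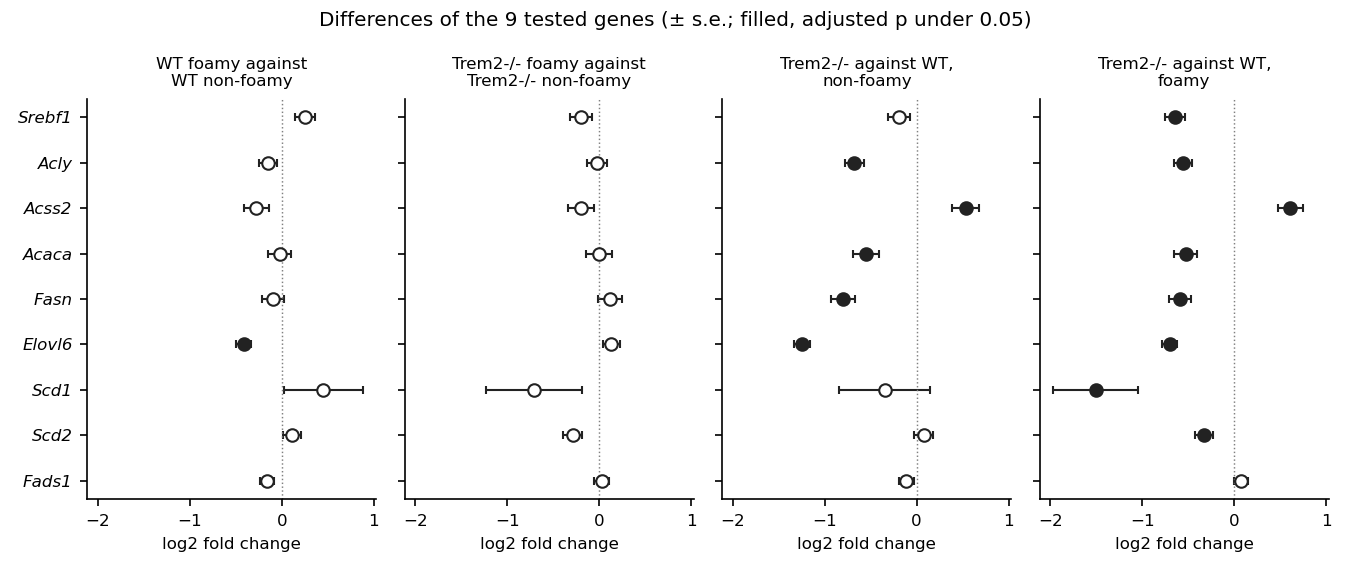
Log2 fold change (x axis) of the 9 tested genes in 4 comparisons, with bars of 1 s.e. and filled points for an adjusted p under 0.05 (edgeR quasi-likelihood test). Elovl6 is the filled point of the WT response, no point is filled in the Trem2-/- response, and in both comparisons of genotype the filled points lie below 0 except for Acss2.

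Srebf1 encodes the transcription factor of the pathway. Its level was 41.2, 43.1, 36.6 and 46.9 CPM in WT non-foamy libraries, 58.4, 44.8, 44.3 and 52.6 CPM in WT foamy, 34.7, 33.7 and 42.1 CPM in Trem2-/- non-foamy, and 32.6, 35.3, 35.2 and 24.9 CPM in Trem2-/- foamy libraries. Every Trem2-/- foamy library was below every WT foamy library, whereas the non-foamy groups overlapped. The log2 difference between genotypes was −0.64 ± 0.109 (s.e., adjusted p = 1.01e-04 by edgeR) with cholesterol and −0.19 ± 0.118 (adjusted p = 0.205) without it. The log2 change with cholesterol was 0.25 (95% interval 0.01 to 0.49, adjusted p = 0.237) in WT and −0.20 (−0.46 to 0.06, adjusted p = 0.835) in Trem2-/- cells. The difference between these responses, −0.45 ± 0.160, missed the threshold at an adjusted p of 0.121, and it passed when no filter on low counts was used (0.0107) or when the mitochondrial share entered the fit as a term (0.0122).

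Acly and Acss2 make the acetyl-CoA that the pathway starts from, from citrate and from acetate. Acly stood at 177, 178, 137 and 193 CPM in WT non-foamy, 177, 154, 133 and 154 CPM in WT foamy, 101.8, 105 and 114 CPM in Trem2-/- non-foamy and 107, 116, 109 and 89.2 CPM in Trem2-/- foamy libraries. All 7 Trem2-/- libraries were below all 8 WT libraries. Between genotypes the log2 difference of Acly was −0.68 ± 0.106 (adjusted p = 1.76e-05) without and −0.55 ± 0.0972 (adjusted p = 1.47e-04) with cholesterol.

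Acss2 went the other way. Libraries of WT non-foamy cells held 8.45, 9.37, 6.34 and 9.08 CPM of it, WT foamy 9.03, 6.36, 5.75 and 6.38 CPM, Trem2-/- non-foamy 11.997, 13.6 and 10.8 CPM, and Trem2-/- foamy 9.92, 10.6, 11.3 and 10.4 CPM. Again the genotypes did not overlap at either condition, here with Trem2-/- above WT. The gene was 1.45-fold higher without cholesterol (log2 0.53 ± 0.144, adjusted p = 0.00436) and 1.52-fold higher with it (log2 0.61 ± 0.136, adjusted p = 0.00148). Scaling by total counts alone, under which the median gene stood at −0.13 on the log2 scale in both comparisons of genotype, left the direction of Acss2 as it was but ended the call without cholesterol (0.38, adjusted p = 0.0821). The opposite moves of the acetyl-CoA sources show in the ratio of Acss2 to Acly counts, chosen after the values were seen, which was 0.0485 ± 0.00286 (SD) in WT non-foamy, 0.0442 ± 0.00464 in WT foamy, 0.114 ± 0.0178 in Trem2-/- non-foamy and 0.101 ± 0.0116 in Trem2-/- foamy cells. The highest WT library had a ratio of 0.0527 and the lowest Trem2-/- library 0.0908. Neither gene passed the test for a response to cholesterol, with log2 changes of −0.15 (Acly) and −0.28 (Acss2) in WT cells and −0.02 and −0.20 in Trem2-/- cells.

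**Figure D3:**
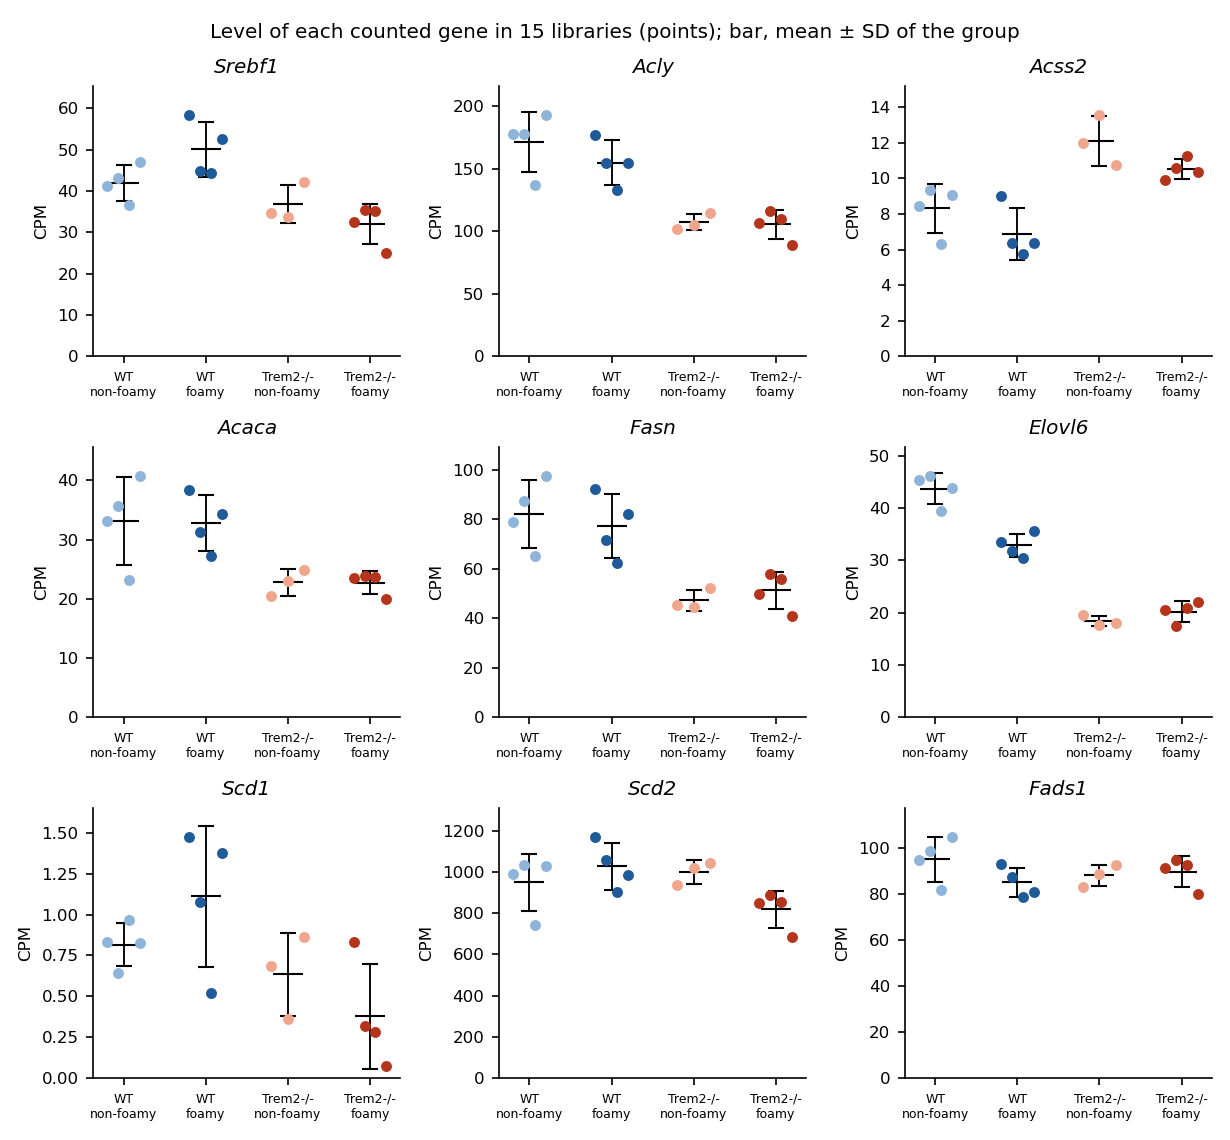
Level in CPM (y axis, from 0) of each of the 9 counted genes, 1 panel per gene, in the 15 libraries (points) of the 4 groups, with mean ± SD as bars. Acly, Fasn and Elovl6 lie lower in both Trem2-/- groups, Acss2 lies higher, Srebf1 and Scd2 separate by genotype in the foamy groups, and Fads1 stays between 78.8 and 105 CPM throughout.

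Acaca and Fasn carry out the synthesis itself. Fasn was at 79.1, 87.4, 65.1 and 97.6 CPM in WT non-foamy, 92.3, 71.9, 62.6 and 82.3 CPM in WT foamy, 45.4, 44.5 and 52.3 CPM in Trem2-/- non-foamy and 50.04, 58.1, 56.0 and 41.0 CPM in Trem2-/- foamy libraries. No Trem2-/- library reached a WT library. Expressed as log2 differences between genotypes, Fasn was at −0.80 ± 0.133 (adjusted p = 3.53e-05) without and −0.59 ± 0.121 (adjusted p = 6.67e-04) with cholesterol.

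For Acaca, whose product malonyl-CoA is the committed unit of the pathway, the levels were 33.2, 35.7, 23.1 and 40.8 CPM in WT non-foamy, 38.4, 31.4, 27.3 and 34.3 CPM in WT foamy, 20.4, 23.1 and 25.0 CPM in Trem2-/- non-foamy, and 23.5, 23.9, 23.7 and 19.9 CPM in Trem2-/- foamy libraries. The non-foamy groups overlapped through WT replicate 3, and the foamy groups did not overlap. It was lower in Trem2-/- cells by a log2 difference of −0.55 ± 0.140 (adjusted p = 0.00278) without cholesterol and −0.53 ± 0.128 (adjusted p = 0.00307) with it. Neither Acaca nor Fasn responded past the threshold to cholesterol, and the 95% intervals of the response were −0.30 to 0.26 (Acaca) and −0.36 to 0.17 (Fasn) in WT and −0.31 to 0.31 and −0.18 to 0.41 in Trem2-/- cells.

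Elovl6, the elongase of palmitate, had the largest genotype difference of the members without cholesterol and responded to it in WT cells. WT non-foamy libraries had 45.4, 46.1, 39.4 and 43.9 CPM, WT foamy 33.5, 31.8, 30.5 and 35.7 CPM, Trem2-/- non-foamy 19.5, 17.6 and 18.1 CPM, and Trem2-/- foamy 20.5, 17.5, 20.8 and 22.1 CPM. The 3 levels (those of WT non-foamy and WT foamy cells and that of all Trem2-/- cells) did not overlap, while the Trem2-/- groups did. In WT cells the gene was at 0.751-fold with cholesterol (log2 −0.41 ± 0.0798, adjusted p = 0.00534, lower in 4 of 4 libraries). In Trem2-/- cells the log2 change was 0.13 (−0.07 to 0.33, adjusted p = 0.866). The responses differed by 0.55 ± 0.121 on the log2 scale (adjusted p = 0.0142), and this call was lost without Trem2-/- non-foamy replicate 2 (0.52, adjusted p = 0.0536). Trem2-/- cells held 0.421-fold the WT level without cholesterol (log2 −1.25 ± 0.0907, adjusted p = 2.86e-10) and 0.615-fold with it (log2 −0.70 ± 0.0818, adjusted p = 9.31e-07).

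The desaturases Scd1 and Scd2 differed between genotypes in foamy cells. Scd2 was at 988, 1035, 741 and 1030 CPM in WT non-foamy, 1169, 1059, 902 and 983 CPM in WT foamy, 936, 1018 and 1045 CPM in Trem2-/- non-foamy and 850, 886, 852 and 684 CPM in Trem2-/- foamy libraries. All 4 Trem2-/- foamy libraries were below the WT foamy and the Trem2-/- non-foamy libraries. With cholesterol Scd2 was lower in Trem2-/- cells by −0.33 ± 0.0991 on the log2 scale (adjusted p = 0.0142), and without it the difference was 0.08 (−0.16 to 0.31, adjusted p = 0.599). This call was lost without WT foamy replicate 1 (−0.26, adjusted p = 0.0514) and without Trem2-/- foamy replicate 4 (−0.25, adjusted p = 0.0635), and it was kept without the 3 libraries of largest mitochondrial share (−0.31, adjusted p = 3.13e-04). The log2 response of Scd2 was 0.12 in WT and −0.29 in Trem2-/- cells, and the difference of −0.41 ± 0.145 between them missed the threshold (adjusted p = 0.127). It passed with no filter on low counts (adjusted p = 0.00402), without the 3 libraries of largest mitochondrial share (0.0492) and with that share as a term (0.00144).

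Scd1, the other stearoyl-CoA desaturase, was near the limit of detection, at 0.830, 0.644, 0.968 and 0.826 CPM in WT non-foamy, 1.47, 1.08, 0.520 and 1.37 CPM in WT foamy, 0.684, 0.361 and 0.861 CPM in Trem2-/- non-foamy and 0.834, 0.318, 0.285 and 0.0743 CPM in Trem2-/- foamy libraries. The foamy groups overlapped through WT replicate 3 and Trem2-/- replicate 1. The log2 difference between genotypes with cholesterol was −1.51 ± 0.465 (adjusted p = 0.0168), with a 95% interval of −2.53 to −0.48. It did not pass without WT foamy replicate 1 (−1.34, adjusted p = 0.0507) or without Trem2-/- foamy replicate 4 (−1.19, adjusted p = 0.0508).

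Fads1, the delta-5 desaturase, was the steadiest of the 9 tested members, with an RMS deviation of 0.117 log2 over the 15 libraries against 0.198 to 0.888 for the others. Levels were 94.97, 98.98, 81.6 and 105 CPM in WT non-foamy, 93.0, 87.5, 78.8 and 81.2 CPM in WT foamy, 83.2, 88.8 and 92.5 CPM in Trem2-/- non-foamy and 91.3, 95.1, 92.7 and 80.2 CPM in Trem2-/- foamy libraries, and all groups overlapped. Its 4 log2 differences lay between −0.16 (WT response, adjusted p = 0.287) and 0.08 (genotype with cholesterol, adjusted p = 0.478), with intervals of −0.33 to 0.01 and −0.09 to 0.24. Scaling by total counts turned the latter to −0.05.

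**Figure D4:**
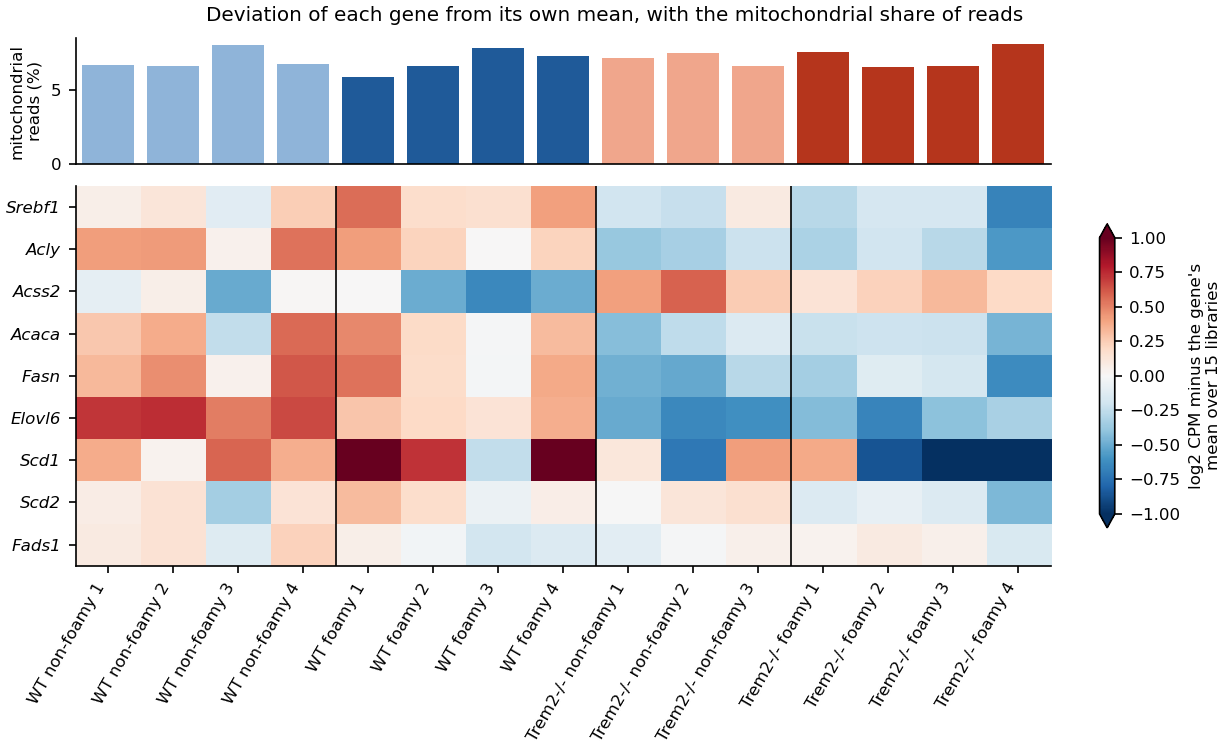
Deviation of log2 CPM from each gene's mean over the 15 libraries (colour, limited to −1 and 1) for 9 genes in rows and libraries in columns, under bars of the mitochondrial share of reads in percent. Acly, Acaca, Fasn and Elovl6 turn from red in WT to blue in Trem2-/- columns, Acss2 turns the other way, and the column with the tallest bar in each group of 4 (7.97%, 7.76% and 8.05%) is the palest or bluest of that group for most genes.

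Likeness of pattern was measured as the root mean square (RMS) difference between centred log2 CPM profiles over the 15 libraries, as a description, and all profiles share the same libraries. Among the members, Fasn and Acly were nearest to each other (RMS 0.0907 log2), with Acly at rank 9 of all tested genes for Fasn, and Acaca was nearest to Acly (0.104, rank 10). Elovl6 was farther from its nearest member, Acly (0.266, rank 462). Srebf1 was nearest to Acaca (0.170, rank 141). Acss2 and Scd2 were both nearest to Fads1, the steadiest member, at 0.335 (rank 2629) and 0.172 (rank 1070). Profiles were not scaled, so a flat profile would lie at 0.362 from Acss2 and at 0.198 from Scd2. Their distances to Fads1 are close to these values and show little shared pattern. Outside the pathway the genes most like Acly were Eif3b (0.0386), Mars1 (0.0491) and Eif4g1 (0.0545), those most like Fasn were Dnmt1 (0.0654), Rcc2 (0.0754) and Ncapd2 (0.0772), and those most like Elovl6 were Ctps (0.0939), Lbr (0.0958) and Hells (0.115). The genes nearest to Srebf1 were Mical1 (0.106), Hk1 (0.114) and Mdc1 (0.117).

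Neighbouring steps were read from lists of genes. Among 9 tested genes that supply acetyl-CoA and NADPH, 5 were lower and 1 higher in Trem2-/- non-foamy cells, including Slc25a1, the mitochondrial citrate carrier that feeds Acly (log2 −0.64, adjusted p = 2.50e-06), Aacs, which activates acetoacetate for lipid synthesis (−0.68, adjusted p = 1.28e-04), and the NADPH source Idh1 (0.51, adjusted p = 2.90e-06). With cholesterol 2 were lower and 1 higher, and none of the 9 was called in either response. Of 17 other elongation and desaturation genes, 8 were lower and 2 higher without cholesterol. Among them were the elongation cycle reductase Hsd17b12 at −0.62 and Cyb5b, a cytochrome b5 gene, at −0.77, against 1.31 for the dehydratase gene Hacd4. With cholesterol 5 were lower and 1 higher. In the WT response Cyb5b (−0.23, adjusted p = 0.0265) and Hsd17b12 (−0.22, adjusted p = 0.0396) fell as Elovl6 did, Hacd4 rose (0.37, adjusted p = 0.00336), and no gene of the list was called in the Trem2-/- response. Among 17 tested acyl-CoA synthetases and glycerolipid enzymes, which use the fatty acids, 10 were lower and 3 higher without cholesterol, with Acsl3 at −0.53 and Agpat2 at −0.45 against 0.80 for the lipase gene Pnpla2, and 6 were lower and 1 higher with it. The median log2 differences without cholesterol were −0.28, −0.24 and −0.26 for these 3 lists, against 0.02 over all tested genes. Over all tested genes 43.6% were called without cholesterol (22.6% lower, 21% higher) and 30.2% with it (15.9% lower, 14.3% higher). In the WT and Trem2-/- responses 2.8% and 0.14% of all genes were called. Whether a list differed from these shares was not tested.

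Regulators were mixed. Of 16 tested regulators of SREBP and of lipogenic transcription, 5 were lower and 4 higher in Trem2-/- non-foamy cells, and 1 lower and 2 higher in foamy cells. Over all tested genes 43.6% and 30.2% were called in these comparisons, and 2.8% in the WT response. Insig1, which retains the SREBP complex in the endoplasmic reticulum and is itself an SREBP target, was lower by −0.83 (adjusted p = 9.22e-10) and Srebf2, the gene of SREBP-2, by −0.72 (adjusted p = 2.49e-05) without cholesterol. With cholesterol the SREBP escort gene Scap was at −0.56 (adjusted p = 0.0193). The 2 regulators higher in Trem2-/- foamy cells were Usf2 (0.35, adjusted p = 0.00231 by edgeR) and Mbtps2 (0.18, adjusted p = 0.0373 by edgeR). In WT cells Insig1 fell with cholesterol (−0.49, adjusted p = 4.39e-05), the 1 regulator called there, and its responses differed between genotypes by 0.71 (adjusted p = 3.31e-05).

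Sterol genes had another pattern. Of 17 tested cholesterol synthesis genes, 13 fell in WT cells with cholesterol (median −0.59) and 6 rose in Trem2-/- cells (median 0.38), with Idi1 at −0.96 and 0.74 and Msmo1 at −0.82 and 0.67. All 17 were lower in Trem2-/- non-foamy cells (median −0.99), and in foamy cells 5 were lower and 1 higher (median −0.12). Their responses differed between genotypes for 13, all higher (median 1.01), beside a median of 0.08 for the fatty acid genes. The oxysterol receptor targets went opposite, with 4 of 6 tested rising in WT cells (median 0.77, among them the efflux transporter genes Abca1 at 0.82 and Abcg1 at 0.76), 2 falling in Trem2-/- cells and 5 higher in Trem2-/- non-foamy cells (median 1.22). With cholesterol 2 of these 6 were higher in Trem2-/- cells (median 0.01), whereas 7 of the 9 fatty acid genes were lower. Over all tested genes 2.8% were called in the WT response, 0.14% in the Trem2-/- response and 3.64% in the difference. Between genotypes the shares were 43.6% without and 30.2% with cholesterol. A difference between lists was not tested.

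**Figure D5:**
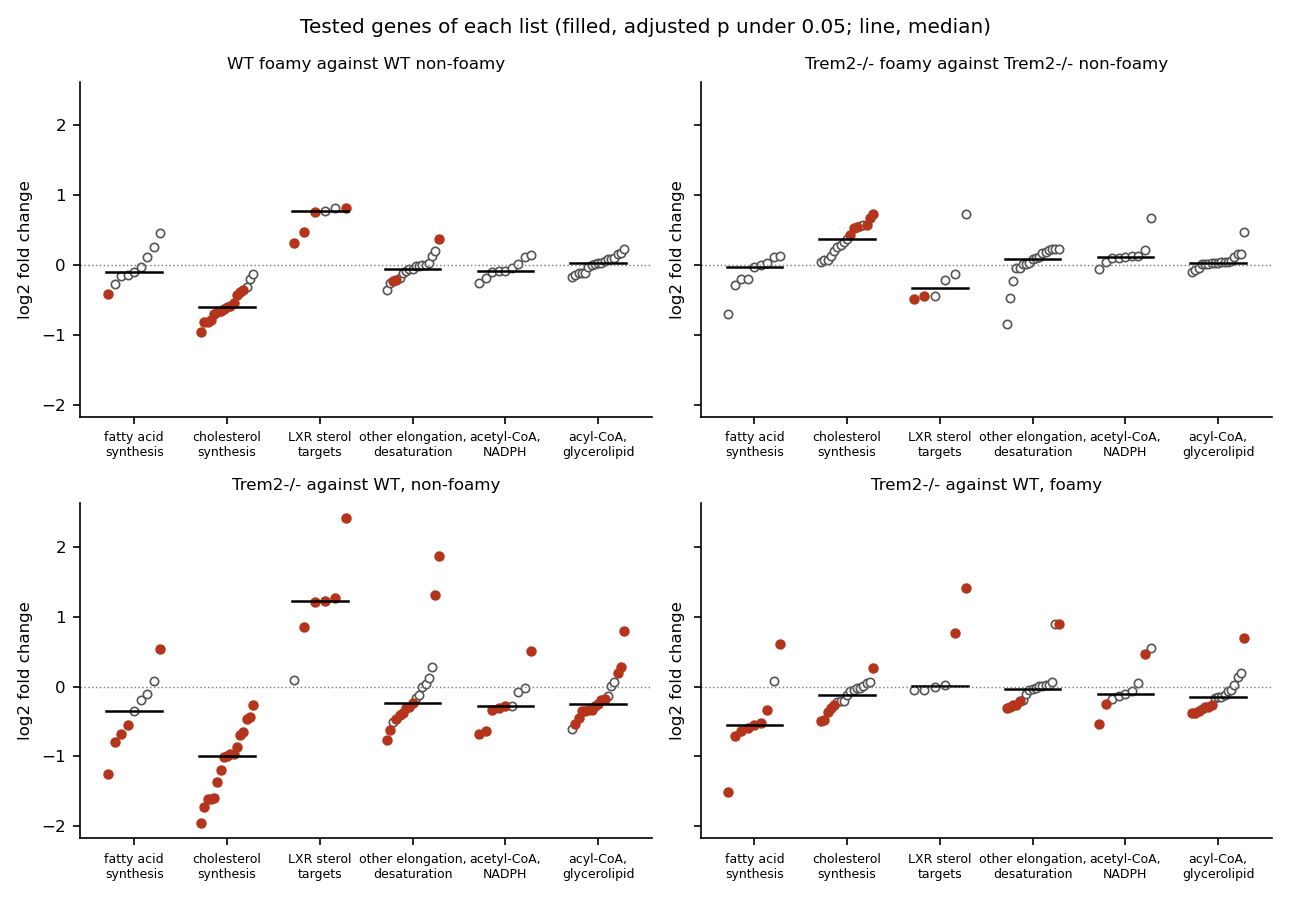
Log2 fold change (y axis) of every tested gene in 6 lists, sorted within each list, in 4 comparisons, with filled points for an adjusted p under 0.05 and a line at the median of the list. In the WT response the cholesterol synthesis genes lie around −0.59 and the fatty acid genes around −0.09, while in Trem2-/- against WT foamy cells the fatty acid genes lie around −0.55 and the cholesterol synthesis genes around −0.12.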

How the data were processed

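RNA of 15 libraries of BV2 cells (4, 4, 3 and 4 per group) was analysed. The authors deposited raw read counts per gene for 54390 genes, 1 table per library, without normalization. Per the methods, reads were trimmed with Trimmomatic, aligned to GRCm38 with HISAT2 and counted with featureCounts. Strand and multi-mapping settings are not given in the sources used here.

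Genes were kept by filterByExpr (minimum count 10), which left 14237 genes with 99.97% of all counts. TMM factors were computed, and 1 mean per group was fitted over all 15 libraries with the quasi-likelihood F-test of edgeR 4.0.16 in R 4.3.3. P-values were adjusted by Benjamini-Hochberg over all tested genes and called under 0.05. The s.e. is the log2 fold change divided by the root of its F statistic. The 95% intervals use this s.e. with the 11 residual degrees of freedom alone, fewer than the F-test used. They are therefore somewhat wider than the test implies. For Fads1 in the WT response the interval spans no change, although the unadjusted p of the F-test was 0.0443. A prior count of 2 was used for log2 CPM in the likeness measure. Depth was 23538963 to 41683825 reads per library, which limits the precision for Scd1 above all. The Fads2 limit is taken from counts and covers counting error only, whereas the 95% intervals include the spread between libraries.

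The members, the lists of genes and the tests were chosen with earlier results of these data known. Named genes were all 10 members, Trem2, and of each list and comparison at most the 3 called genes with the largest absolute log2 fold change and a mean of at least 1 CPM, with the 3 nearest genes for likeness. Some genes of the lists are not reported here. Promoter sequences came from RefSeq (7 of 10 members had an entry). Alternatives were DESeq2 1.42.0, RLE factors, total counts alone, no filter, a minimum of 10 counts in each library, a fit of only the compared groups, a replicate block and leaving out each library. After the data were seen, a fit without the 3 libraries of largest mitochondrial share and a fit with that share as a term were added.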

Additional observations from a re-analysis of the deposited data

Results flagged for a closer look

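Elovl6 was flagged because the response to cholesterol differed between WT and Trem2-/- cells, by 0.55 on the log2 scale (edgeR adjusted p = 0.0142), falling in 4 of 4 WT foamy libraries below every WT non-foamy library. Of 27 groups of 4 libraries tested for a library far from the others, 2 were flagged, where chance flags about 1 in 20. In Trem2-/- foamy cells replicate 4 had 19.9 CPM of Acaca, against 23.5 to 23.9 CPM in the other 3 libraries. In WT non-foamy cells replicate 3 had 741 CPM of Scd2, against 988 to 1035 CPM in the other 3 libraries. Both libraries had the largest mitochondrial share of their group, at 8.05% and 7.97%, and the part of this in the values was not tested.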

How the results depend on the processing

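Of the 15 member results called, 249 of 255 alternatives kept the direction and the side of the threshold, 6 kept the direction and missed the threshold, and none reversed. The number of members called moved by over 1.5 times with no filter on low counts (1 in the Trem2-/- response, 3 in the difference of responses), on leaving out the 3 libraries of largest mitochondrial share (2 in the difference) and with the mitochondrial share as a term (4 in the WT response, 1 in the Trem2-/- response, 4 in the difference). The cause was not tested, and the share of all genes called in each of these fits is not set beside the counts. Smaller moves were to 4 (total counts alone) and 7 (the 3 libraries left out) from 5 between genotypes without cholesterol, and to 7 (at least 10 counts in every library) and 9 (mitochondrial share as a term) from 8 with it. Leaving out 1 library at a time gave 0 to 1 members for the difference, 6 to 8 for the genotypes with cholesterol, and the main count elsewhere. Scaling by total counts took the median gene from 0.02 to −0.13 between genotypes without cholesterol and from 0.00 to −0.13 with it, and turned the split of all called genes in the WT response from 40.6% to 58.2% lower, without cholesterol from 51.9% to 70.6%, with it from 52.6% to 76.7%, and in the difference from 45.2% to 29.7%. Over all genes, DESeq2 called 832 in the WT response, 55 in the Trem2-/- response and 940 in the difference, against 399, 20 and 518 by edgeR.

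Reversals occurred among results that had not passed, 30 in all. They were, on the log2 scale, 0.00692 for Acaca in the Trem2-/- response, −0.0722 for Scd2 between genotypes without cholesterol and −0.0529 for Fads1 with it (total counts alone), 0.0579 for Acaca and 0.0503 for Acly in the Trem2-/- response and −0.0255 for Scd2 without cholesterol (3 libraries left out), and 0.0303 for Acaca and 0.00242 for Acly in the Trem2-/- response (mitochondrial share as a term). Leaving out 1 library gave −0.154 to 0.0941 for Acaca and −0.190 to 0.000156 for Fasn in the WT response, −0.0764 to 0.0685 for Acaca, −0.0730 to 0.0486 for Acly and −0.0126 to 0.0778 for Fads1 in the Trem2-/- response, −0.0259 to 0.120 for Scd2 without cholesterol, and −0.0959 to 0.153 for Acaca and −0.00111 to 0.238 for Acss2 in the difference.

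The labels give groups the same replicate numbers, but deviations of same-numbered libraries correlated at −0.10 to 0.14 over 21 pairs, so the numbers were not taken as a pairing. With a replicate block, 1, 0, 5, 8 and 1 members were called in the WT response, the Trem2-/- response, the genotypes without and with cholesterol and the difference, over all genes 294 in the difference against 518 without it, and the Acaca difference turned to −0.0162.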
